A study of Mus musculus with 2 samples.

Results

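Strong solitary peaks were taken from the REV-ERBα peak list of mouse T helper 17 (Th17) cells as the autosomal peaks with 22 to 1000 ChIP tags whose nearest other peak, measured between midpoints, lay more than 10000 bp and at most 300000 bp away. The members were thus chosen by their ChIP tags and their spacing, and score, fold and p-value come from the same tags, so that these values describe the members and support nothing further. The rule gave 945 of the 8884 listed peaks, or 10.6%. A further 4494 autosomal peaks had the same spacing but fewer than 22 tags and are called weaker solitary peaks. Among the 5439 solitary peaks, 17.4% were strong (95% interval 16.4 to 18.4). Of the other autosomal peaks in the same tag range, 809 had a neighbour within 10 kb and 31 had none within 300 kb. The series holds 1 chromatin immunoprecipitation (ChIP-seq) sample made with an antibody to REV-ERBα and 1 sample of input DNA, both from wild-type Th17 cells grown in primary culture. No treatment, time of harvest, or animal age was given in the labels. With 1 sample of each kind no value has a replicate check, no test was made, and the 95% intervals given with values hold only for counting error and for peaks taken as independent. Whether intervals overlap is given as a description and does not decide whether the values differ.

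REV-ERBα is a haem-binding nuclear receptor of the circadian clock. It lacks the part of the receptor that recruits coactivators and instead brings the corepressor NCoR and the histone deacetylase HDAC3 to DNA, where it lowers transcription of clock and metabolic genes. It binds the same response element as the ROR receptors, among them RORγt, which drives the Th17 programme and its cytokine IL-17. A peak in such an experiment is a stretch of DNA that was recovered more often with the antibody than in input.

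The ChIP library had 6390234 tags, and all listed peaks were of equal width. Members are described by position in the mouse build mm9, because genes and DNA sequence of that build were not used here. Whether a given peak lies in a promoter, an intron or between genes, and whether it holds a ROR element, was therefore not analysed here.

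Strong solitary peaks held few tags, and most lay close to the lower limit of the rule. Together they had 26881 tags, 16.7% of the tags in all listed peaks and 0.421% of the library. The median was 26 tags with quartiles of 23 and 31, which is 40.7 in the authors' normalization to 10000000 tags. In 333 members the count was 22 to 24, in 302 it was at least 30, in 67 at least 40 and in 22 at least 50. The upper limit of 1000 tags removed no solitary peak, since the member with the most tags had 68 and the single listed peak above the limit had its nearest neighbour beyond the upper distance limit.

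The lower limit did not separate classes of peaks. Just inside it, 120 solitary peaks had 22 tags, and just outside it 129 had 21 tags. A count of 22 has a Poisson interval of 13.8 to 33.3 and a count of 21 one of 13.0 to 32.1. The interval lay wholly above 21 tags in 249 members (26.3%), those with at least 31 tags. For all members the word strong describes this library's count only, since that count chose them and also gives the interval.

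The members with the most tags lay on 8 different autosomes. The first, chr1:146086208-146086514, had 68 tags (95% interval 52.8 to 86.2) and a score of 52. It held 1.9 scaled input tags and was 36.0-fold over input (interval 9.58 to 303). Its enrichment over the surrounding 10000 bp was only 7.67-fold, below the member median. The local ChIP background that follows from this fold and the tag count was 8.87 tags per peak width, the highest of any member.

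A pair of members on chromosome 3 came next. The peak at chr3:88313991-88314297 had 67 tags and the peak at chr3:88325739-88326045 had 65, and they lay 11.7 kb apart. The first had 7.6 scaled input tags, a value no other member exceeded, and was 8.86-fold over input (4.25 to 21.4). The second had 5.7 and was 11.5-fold (4.99 to 32.4). Each was the other's nearest listed peak, so that this pair counts as solitary only through the limit of 10 kb.

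On chromosome 9 the peak at chr9:107471124-107471430 combined a high count with a low surrounding signal. It had 63 tags, a score of 53 and 1.9 scaled input tags, for 33.3-fold over input (8.85 to 281). Over its local region it was 43.4-fold enriched, the highest value among members, against a background of 1.45 tags. Its nearest listed neighbour, 26.9 kb away, had 10 tags.

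On chromosome 18 a pair of high counts differed in background. The peak at chr18:65482121-65482427 had 63 tags over 6.6 scaled input tags and was 9.52-fold over input (4.36 to 24.6) and 7.83-fold over the local region. The peak at chr18:34918804-34919110 had 61 tags over 0.9 scaled input tags, 1 tag in the input library, and was 64.5-fold over input (11.2 to 2590) and 27.2-fold over the local region. The fold intervals overlap at this depth, and the difference in enrichment over input was not tested.

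The remaining members of the first 10 had 54 to 60 tags. The peak at chr7:106982309-106982615 had 60 tags and was 15.9-fold over input (5.89 to 60.1). The peak at chr11:86437821-86438127 had 55 tags and was 29.1-fold (7.68 to 246); its surroundings were crowded, with 27 other listed peaks within 500 kb. The peak at chr12:100748375-100748681 had 54 tags and was 14.3-fold over input (5.27 to 54.3) but 33.5-fold over its local region. The peak at chr6:47571097-47571403 also had 54 tags and carried no input tag. Its listed fold of 114 is set by the lowest input value that the caller writes, 0.5. Set against 3 input tags, about the number that a count of 0 allows, its fold was 19.0. That value takes the 54 ChIP tags as exact and is not comparable with the interval limits of the other peaks. Tag counts of these 10 members overlapped within their intervals.

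Every autosome had at least 16 members. The strongest member of an autosome not yet named had 52 tags on chromosome 2 (chr2:131249451-131249757), 52 on chromosome 5 (chr5:53881935-53882241), 50 on chromosome 4 (chr4:128712288-128712594) and 50 on chromosome 10 (chr10:7544429-7544735). It had 44 tags on chromosome 17 (chr17:84562339-84562645), 42 on chromosome 13 (chr13:53009965-53010271), 40 on chromosome 8 (chr8:108531127-108531433) and 39 on chromosome 14 (chr14:122354543-122354849). On chromosomes 16 and 19 it had 38 tags (chr16:84646501-84646807 and chr19:4845964-4846270), and on chromosome 15 it had 34 (chr15:58703917-58704223). Among these, scaled input ran from 0.9 on chromosomes 4, 5, 8, 15 and 16 to 5.7 on chromosome 17, and the fold over input from 7.76 on chromosome 17 (3.29 to 22.3) to 55.0 on chromosome 5 (9.45 to 2214).

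Strong and weaker solitary peaks occurred together on every autosome. Strong solitary peaks ran in number from 16 on chromosome 19 and 19 on chromosome 18 to 78 on chromosome 2. Chromosome 1 had 75 and chromosome 11 had 69. Per Mb between the first and last listed peak of a chromosome, the mean number of strong solitary peaks was 0.391 ± 0.0862 (SD across 19 autosomes). Chromosome 11 was highest at 0.581 (0.452 to 0.736) and chromosome 18 lowest at 0.220 (0.132 to 0.343). The strong share of solitary peaks was highest on chromosome 14, at 21.3% (15.8 to 27.7), and lowest on chromosome 19, at 10.1% (5.90 to 15.9). The interval included the pooled share of 17.4% on 18 of the 19 autosomes; chromosome 19 lay below it. On chromosome 11, which had the most members per Mb, the strong share was 15.5% (12.2 to 19.2). Median tags per autosome ran from 24.5 to 28.5.

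**Figure D1:**
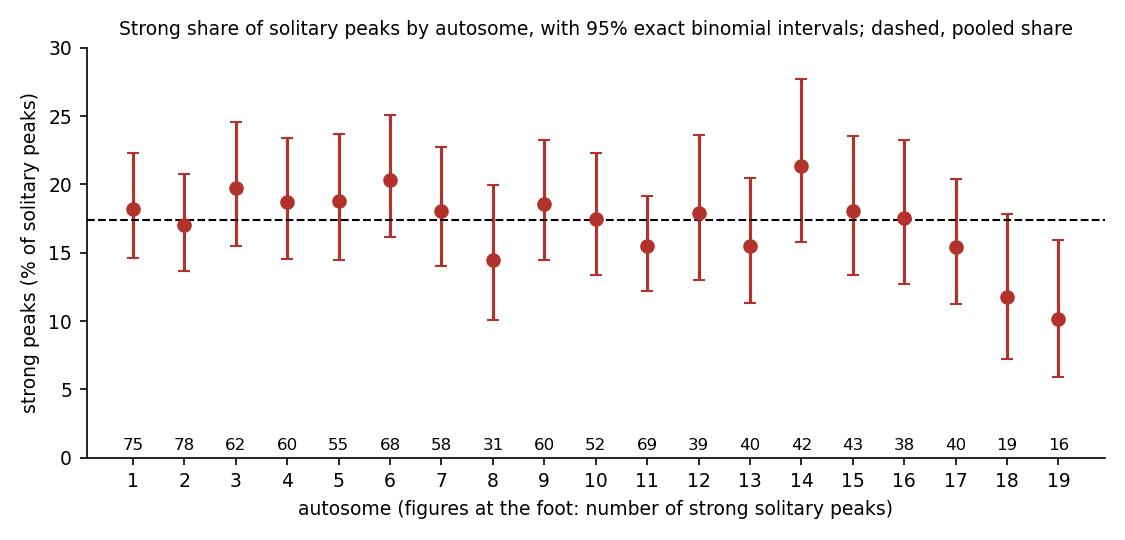
Share of solitary peaks with at least 22 tags on each of the 19 autosomes (points, with exact 95% binomial intervals) and the pooled share of 17.4% (dashed line); the number of strong solitary peaks stands at the foot. The interval of chromosome 19 ends at 15.9%, below the pooled share, and the other intervals include it. No allowance was made for the number of intervals.

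The score, the caller's own measure of peak height, followed the tags closely. Members had a median score of 23 with quartiles of 20 and 27 and a range of 13 to 58, and weaker solitary peaks a median of 12 with a range of 9 to 22. Spearman's rho between tags and score over the 945 members was 0.87, a description of values that share their reads. The score was below the tag count in most members: their median ratio was 0.84 (quartiles 0.79 and 0.90), against 0.90 (0.82 and 0.95) in weaker solitary peaks.

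The lower ratio did not set members apart from weaker peaks of similar count. It was 0.91 among solitary peaks of 7 to 12 tags, which had to reach the caller's threshold of 9, and 0.86 in those of 13 to 16 tags, 17 to 21 tags and 22 to 24 tags. Among members it went from 0.86 to 0.83 in those of 40 to 68 tags. The score exceeded the tags in 9 members (0.952%) and in 326 weaker peaks (7.25%).

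Members with the lowest score for their tags had a high clonal fold, the caller's ratio for how far the number of distinct tag positions departs from expectation, whose median over members was 0.97. The peaks at chr4:42965273-42965579 and chr6:113028345-113028651 both had 22 tags and a score of 13, a ratio of 0.59, with clonal folds of 1.35 and 1.46. The peak at chr13:53009965-53010271 had 42 tags and a score of 27, with a clonal fold of 1.23. Next came 4 members with 23 tags and a score of 15, a ratio of 0.65, among them chr3:105564792-105565098 and chr4:97678884-97679190 with clonal folds of 1.23 and chr14:119057575-119057881 with 1.32. At the other end, the peak at chr6:39131854-39132160 had 23 tags, a score of 26 and a clonal fold of 0.80. The highest clonal fold of any member, 1.46, was below the highest in weaker solitary peaks, 1.63.

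Input DNA under the members was low, but higher than under weaker solitary peaks. The median was 2.8 scaled input tags (quartiles 0.9 and 3.8, mean 2.54) against 0.9 (quartiles 0.9 and 1.9, mean 1.54). The 95% intervals of the medians meet, at 1.9 to 2.8 and 0.9 to 1.9, and the difference of 1.9 became 1 with a tag limit of 20 or with at least 8-fold enrichment over input, and 0.9 without the peaks at the lowest input. Values moved in steps of 0.945, each worth 1 tag of the input library, so a median of 2.8 stands for 3 input tags. No input tag was found under 84 members (8.89%, interval 7.15 to 10.9) and under 866 weaker solitary peaks (19.3%, 18.1 to 20.5). At least 4 input tags lay under 285 members (30.2%, 27.2 to 33.2) and under 199 weaker peaks (4.43%, 3.85 to 5.07).

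**Figure D2:**
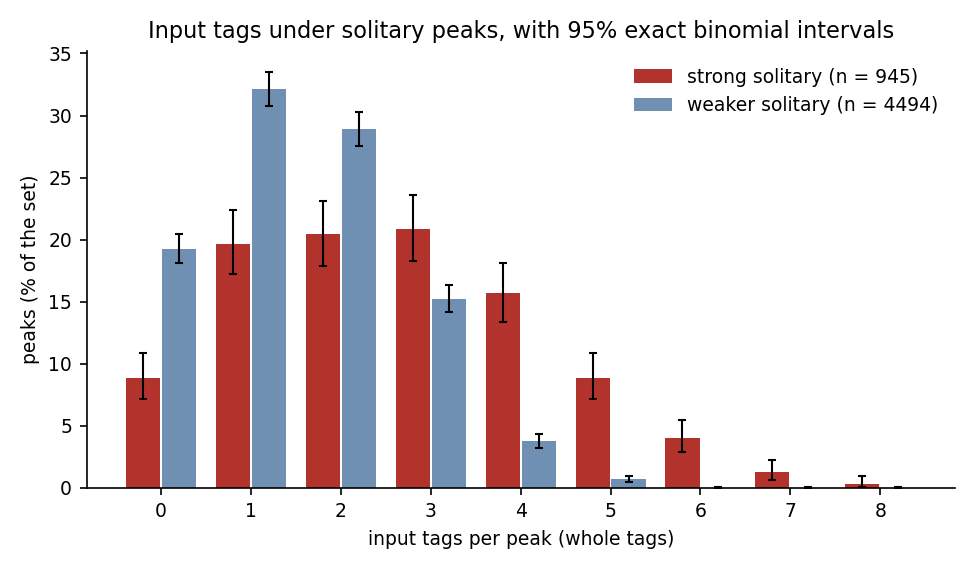
Share of strong and of weaker solitary peaks by whole number of input tags under the peak, with exact 95% binomial intervals. Weaker peaks are concentrated at 0 to 2 input tags and reach 5, while strong peaks extend to 8.

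The peak list itself ties input to ChIP tags, since a listed peak had to exceed input 4-fold and with a Poisson p of 1e-04. Among weaker solitary peaks the lowest listed fold was 7.41 with 1 input tag and 5.29 with 2, both above the 4-fold limit. A weaker peak could therefore enter the list only with little input: the highest scaled input was 4.7 among weaker solitary peaks and 7.6 among members. At most 1 input tag is the range open even to the weakest listed peak of the set, with 7 tags. Within it, 31.1% of 270 members had no input tag (25.6 to 37.0) and 37.5% of 2311 weaker peaks (35.5 to 39.5), and these intervals overlap. Among peaks with at most 2 input tags, a range that peaks of under 10 tags did not reach, the shares were 18.1% of 463 members (14.7 to 21.96) and 23.99% of 3610 weaker peaks (22.6 to 25.4), and the intervals do not overlap. Both shares are taken within a range of the input that is being compared. Among members these filters restrict input less. Their mean scaled input went from 2.32 at 22 to 24 tags to 2.81 at 30 to 39 tags and was 2.74 at 40 to 68 tags. How far input would differ without the filters was not tested.

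**Figure D3:**
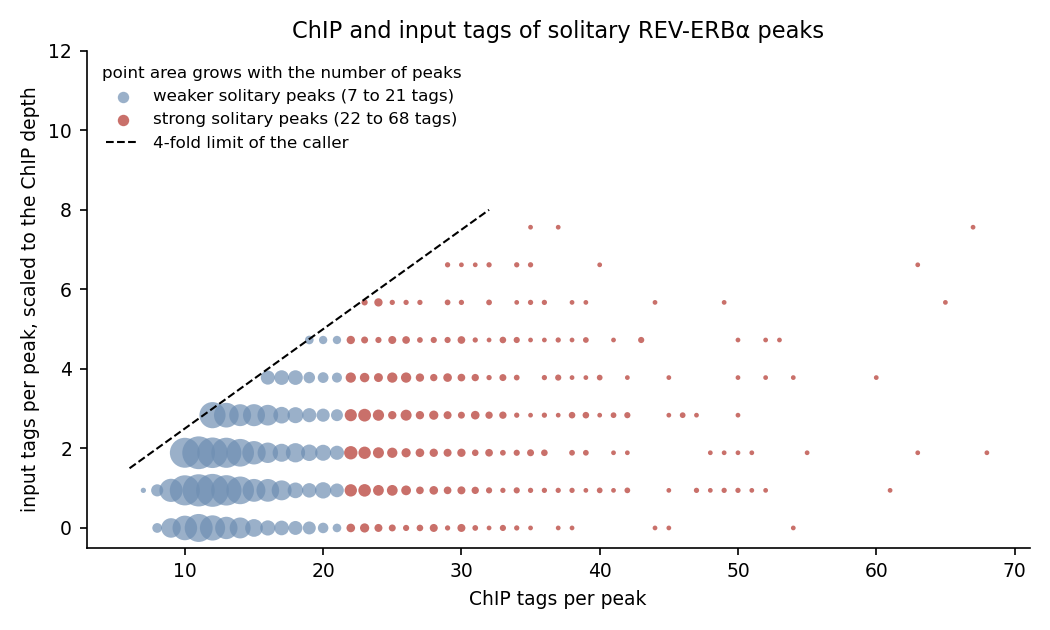
ChIP tags of each solitary peak (horizontal axis) against its input tags in steps of 0.945 scaled tags (vertical axis), with strong peaks in red, weaker peaks in blue and the caller's 4-fold limit as a dashed line; peaks with no input tag are drawn at 0, though the list gives them 0.5. The caller's filters leave weaker peaks a narrow range of input, at low counts narrower than the dashed line allows, and 3 strong peaks reach 8 input tags.

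The members with the most input were the chromosome 3 peak of 67 tags and the peaks at chr5:34773384-34773690 and chr4:32378280-32378586, each with 7.6 scaled input tags. The chromosome 5 peak had 37 tags and was 4.89-fold over input (2.24 to 12.2), and the chromosome 4 peak had 35 tags and was 4.63-fold (2.11 to 11.6). They were followed by 12 members at 6.6, of which the chromosome 18 peak of 63 tags and the peak at chr6:146623670-146623976, with 40, had the most tags. Input counts of this size are small, with at most 8 tags, and the intervals of the fold are wide for that reason.

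Tags over scaled input were spread widely among members and differed little in the median from weaker solitary peaks. The median was 11.6-fold (quartiles 7.76 and 24.3, range 4.06 to 114) against 10.6-fold (6.35 and 16.9, range 4.02 to 44.4). The size of this difference depends on the peaks without an input tag, whose listed fold follows from the lowest value of 0.5. With those peaks left out of both sets, the medians were 11.1 and 7.93, a ratio of 1.40 in place of 1.10. With them set against 3 input tags, the medians were 10.6 and 6.88, a ratio of 1.54.

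At equal input the fold is the tag count on another scale. With 1 input tag the median fold was 27.5 in 186 members and 13.8 in 1445 weaker peaks, and with 3 input tags it was 9.17 in 197 members and 5.29 in 685 weaker peaks. At least 16-fold enrichment over input was listed for 321 members (34.0%), where all listed peaks gave 28.1% and weaker solitary peaks 26.6%. Of these, 84 members and 866 of 1197 weaker peaks had no input tag. Because tags chose the members, nothing is read from these shares.

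All 5 members with the highest listed fold lacked an input tag. After the chromosome 6 peak of 54 tags they were chr3:95472929-95473235 with 45 tags, chr6:51010034-51010340 with 44, chr1:163664927-163665233 with 38 and chr12:86814525-86814831 with 37. Against 3 input tags, with their own tags taken as exact, their folds were 15.9, 15.5, 13.4 and 13.0. At the low end, 4 members with 23 tags over 5.7 scaled input tags were 4.06-fold over input (1.61 to 12.2), at chr5:147860906-147861212, chr11:98650029-98650335, chr14:119057575-119057881 and chr16:92620986-92621292. A further 10 members were 4.23-fold over input, among them chr1:108218047-108218353 with 24 tags (1.69 to 12.7). These members met the tag limit and only just passed the caller's filter over input.

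Enrichment over the local region was higher in members than in weaker solitary peaks. Members had a median of 11.8-fold (quartiles 9.05 and 15.2) and weaker solitary peaks 7.92-fold (6.25 and 10.3). The local ChIP background, tags divided by this fold, was itself higher around members, with a median of 2.37 tags (quartiles 1.799 and 3.06) against 1.67 (1.33 and 2.08). It went from 1.55 around solitary peaks of 7 to 12 tags to 2.11 around members of 22 to 24 tags and 3.32 around members of 40 to 68 tags. The caller listed only peaks at least 4-fold over the local region, which holds the background of weaker peaks to lower values. The highest was 4.93 around weaker solitary peaks and 8.87 around members. How far the background would differ without this filter was not tested. No other listed midpoint lay within 10000 bp of the solitary peaks, while putative peaks that failed the filters are not listed. Whether a peak's own tags enter its local region is not given in the sources used here.

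At least 16-fold enrichment over the local region was listed for 197 members (20.8%), where all listed peaks gave 5.52% and weaker solitary peaks 3.92%. It was listed for 42 of 809 strong peaks with a neighbour within 10 kb (5.19%). Of the 31 strong peaks with none within 300 kb, 11 reached it (35.5%). Both values were at least 16-fold for 80 members (8.47%) and for 64 weaker peaks (1.42%), where all listed peaks gave 2.25%; 59 of the 80 members had at least 1 input tag. The fold over input and the fold over the local region had a Spearman's rho of 0.16 over the 945 members, whose tag counts enter both. Tags chose the members, and the spacing rule keeps listed neighbours out of their local region, so nothing is read from these shares.

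After the chromosome 9 peak, the highest local folds were 42.2 at chr5:36212664-36212970, 33.5 at the chromosome 12 peak of 54 tags, and 31.7 at 3 members, chr13:109393778-109394084, chr6:37473322-37473628 and chr4:139178720-139179026. The chromosome 5 peak had 32 tags, no input tag and a local background of 0.758 tags, the lowest of any member, and its nearest listed neighbour lay 196.9 kb away. The chromosome 13 peak had 30 tags and was 152.6 kb from its neighbour, but was only 7.93-fold over input (2.80 to 31.0). The chromosome 6 peak had 29 tags and was 15.3-fold over input (3.88 to 133), and the chromosome 4 peak had 27 tags and was 9.52-fold.

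**Figure D4:**
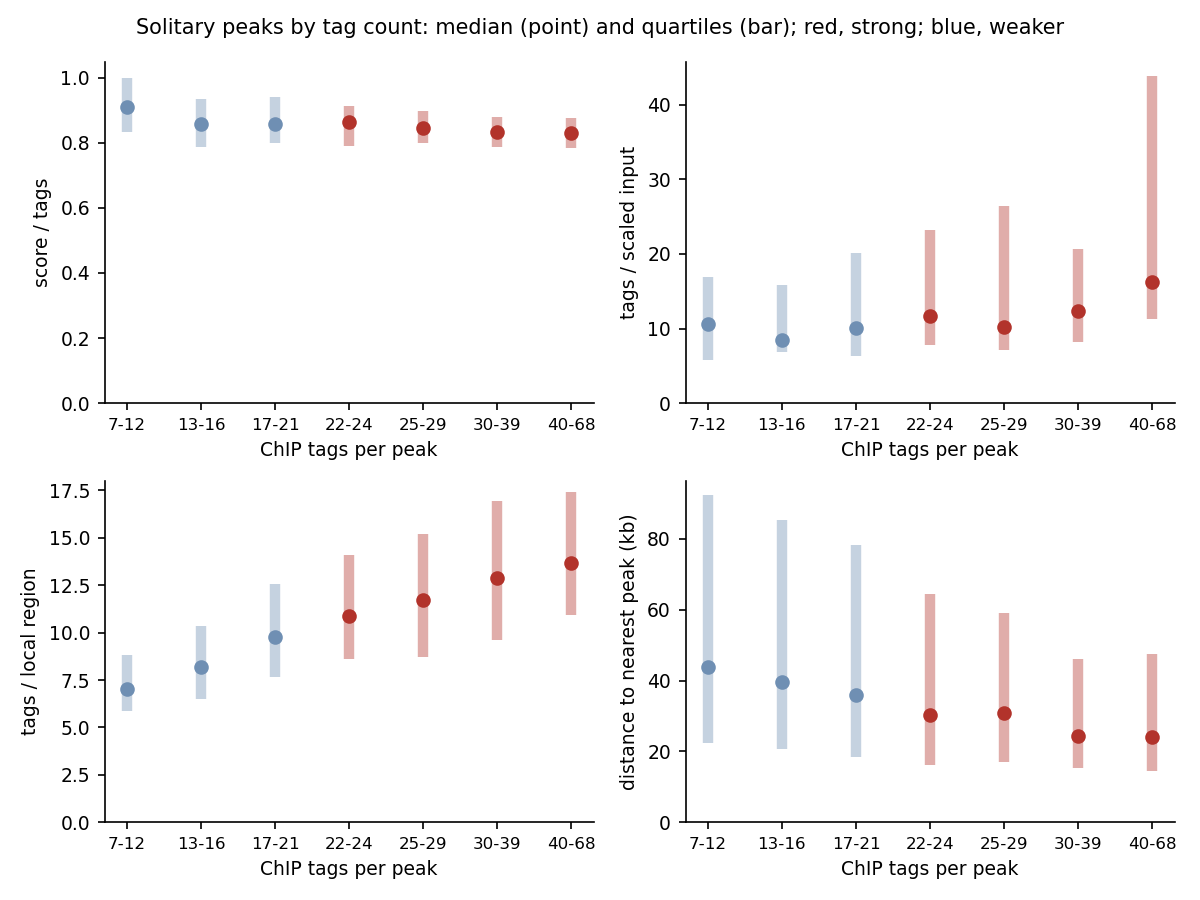
Score over tags, tags over scaled input, tags over the local region and distance to the nearest peak for solitary peaks in 7 ranges of ChIP tags (points, medians; bars, quartiles; blue, weaker; red, strong). The local fold goes from 7.04 to 13.7 and the distance from 43.7 to 23.9 kb between the lowest and the highest range, and the median fold over input from 10.6 to 16.2, with the lowest value, 8.46, at 13 to 16 tags.

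Solitary is a relative term for these peaks. The nearest listed peak lay at a median of 28.0 kb (quartiles 16.2 and 57.6), and at 10 to 20 kb in 330 members (34.9%, interval 31.9 to 38.1). In 224 members (23.7%) listed peaks stood on both sides within 50 kb. No other peak within 100 kb was found for 107 members (11.3%, 9.37 to 13.5). A member had a median of 9 other listed peaks within 500 kb, with quartiles of 6 and 14.

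Weaker solitary peaks were more remote. Their median distance was 40.6 kb (quartiles 20.6 and 86.5), a difference of -12.6 kb for members that became -6.49 kb with distances of at most 100 kb. Of the weaker peaks, 24.01% had the nearest peak at 10 to 20 kb (22.8 to 25.3), and 20.5% had none within 100 kb (19.3 to 21.7). Counted the other way, the strong share of solitary peaks was 23.4% where the nearest peak lay at 10 to 20 kb (21.2 to 25.7), 18.1% at 20 to 50 kb (16.4 to 19.9), 15.0% at 50 to 100 kb (12.9 to 17.2) and 10.4% at 100 to 300 kb (8.62 to 12.5). The intervals at 20 to 50 kb and 50 to 100 kb overlap, and those of the other adjoining classes do not. Local ChIP background went with tag count as well, a relation that the caller's filter over the local region also shapes. The part of this background in the order was not tested.

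The nearest neighbours of members were themselves strong somewhat more often than those of weaker solitary peaks. The neighbour had a median of 15 tags in both sets. It had at least 22 tags for 242 members (25.6%, 22.9 to 28.5) and for 826 weaker peaks (18.4%, 17.3 to 19.5), where 20.2% of all listed peaks reach that count. At 10 to 20 kb the shares were 32.7% (27.7 to 38.1) and 22.2% (19.7 to 24.7). At 50 to 100 kb they were 26.2% (19.7 to 33.5) and 15.6% (13.4 to 18.1). The intervals overlap at 20 to 50 kb, with 23.5% and 19.7%. They also overlap at 100 to 300 kb, where the share was lower for members, 9.35%, than for weaker peaks, 14.6%. Among the 242 members with a strong nearest neighbour, 116 stood in pairs of members nearest to each other. Each such pair is counted from both ends, and the members' intervals make no allowance for this.

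**Figure D5:**
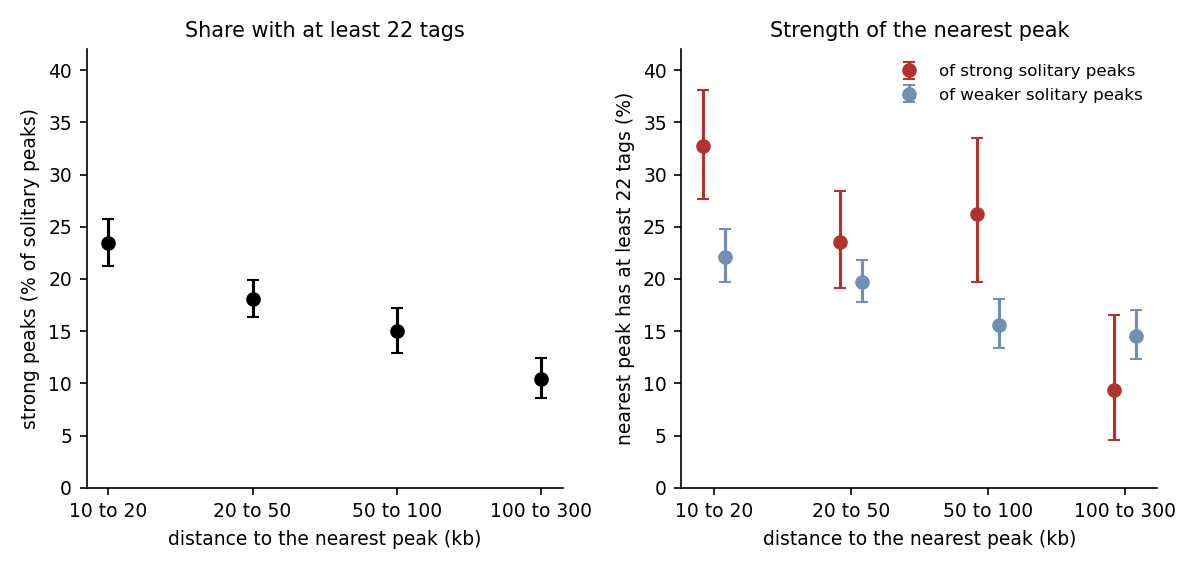
Left, share of solitary peaks with at least 22 tags by distance to the nearest listed peak; right, share of strong (red) and of weaker (blue) solitary peaks whose nearest listed peak has at least 22 tags; bars are exact 95% binomial intervals. The strong share goes from 23.4% at 10 to 20 kb to 10.4% at 100 to 300 kb.

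Some members were neighbours of each other. The nearest peak was another member in 170 cases (18.0%), and 58 pairs of members were each other's nearest peak, at 10.2 to 73.3 kb with a median of 17.9 kb. These 116 members, 12.3% of the set, are not separate surroundings. After the chromosome 3 pair with 132 tags in all, the pairs with the most tags were chr6:47571097-47571403 with chr6:47586463-47586769 (54 and 33 tags, 15.4 kb apart) and chr7:87549017-87549323 with chr7:87562015-87562321 (52 and 34 tags, 13.0 kb apart).

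The distance limits, like the tag limit, cut through a continuum. Within 1 kb inside the lower limit lay 42 members, and within 1 kb outside it 48 peaks of the same tag range. The members nearest to it were chr10:62006225-62006531, with 31 tags and a neighbour at 10001 bp, chr6:38640775-38641081, with 31 tags at 10006 bp, and chr18:24260340-24260646, with 26 tags at 10058 bp. Just outside stood chr6:134202143-134202449, with 30 tags at 9984 bp, chr15:94405315-94405621, with 22 tags at 9978 bp, and chr14:48855928-48856234, with 41 tags at 9971 bp. At the upper limit, the members nearest to it were chr6:113028345-113028651, with 22 tags at 299474 bp, chr13:21509523-21509829, with 23 tags at 299333 bp, and chr7:132333546-132333852, with 25 tags at 298555 bp. Just beyond it stood chr16:49198156-49198462, with 26 tags at 306074 bp, chr10:22022559-22022865, with 25 tags at 307444 bp, and chr2:132514301-132514607, with 34 tags at 308796 bp.

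Strong peaks with a neighbour within 10 kb were compared with the members in the same measures. These 809 peaks had a median of 27 tags (quartiles 24 and 32). Their scaled input had a median of 1.9 (1.9 to 2.8) against 2.8 (1.9 to 2.8) in the members, and a mean of 2.54 in both. Their median fold over input was 12.2 (11.6 to 12.7), against 11.6 (11.6 to 12.2) in the members. They had no input tag in 8.03% (6.26 to 10.1). Their local fold was lower, with a median of 8.43 (8.16 to 8.67) against 11.8 (11.4 to 12.3), and their local background higher, at 3.28 tags against 2.37. The neighbour within the 10000 bp scale of the local region belongs to the rule that separates these sets, and the local fold is therefore given as a description.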

How the data were processed

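ChIP-seq of REV-ERBα and input DNA were sequenced from wild-type Th17 cells (1 sample each). Reads were handled with CASAVA 1.8.2, Bowtie and HOMER on build mm9, per the submitters' processing notes. The authors called peaks with HOMER findPeaks against input, per the file headers: false discovery rate 0.001 (threshold 9 tags), at least 4-fold and Poisson p 1e-04 over input and over 10000 bp around the peak, and no more than 1 tag counted per bp. The deposited total tags are counts without normalization. The deposited normalized tag count is a signal scaled to 10000000 tags, and the deposited input values are a signal put on the depth of the ChIP library. The deposited folds are linear ratios, the score is the caller's own, and the deposited p-values were not used further.

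Midpoint distances, medians, quartiles and shares were computed with pandas 2.3.3, scipy 1.17.1 and numpy 2.4.6 under Python 3.11.15 (plots, matplotlib 3.10.9) and tested on simulated peaks. Input tags were recovered as tags over listed fold in steps of 0.945; the 7392 peaks above the lowest value were all whole steps within a relative tolerance of 0.02. Counts carry exact Poisson, shares Clopper-Pearson, medians order-statistic and folds exact binomial 95% intervals. Folds of peaks without an input tag were set against 3 input tags, with their ChIP tags taken as exact, and carry no interval. Members named are those with the most tags overall and per autosome, those at the extremes of fold, score over tags and input, and those nearest the distance limits. The pairs named were chosen after their values were seen. The members, limits and lists were chosen with earlier results of these data known. Gene lists and motifs that had been planned were not run, as mm9 annotation and sequence were not used here.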

Additional observations from a re-analysis of the deposited data

How the results depend on the processing

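Alternative settings, 11 in all, were planned for the size of the set and for score, input and fold over input, and were applied to spacing and local fold as well. No difference between strong and weaker solitary peaks changed direction under these settings, which did not compare the distance classes one by one. Raising the tag limit to 30 left 302 members, with a median score of 29 and a median fold of 13.8. Their fold ratio to weaker peaks was 1.30. The weaker set was left at its main 4494 peaks, so peaks between the main limit and 30 tags were in neither set. Differences at this setting therefore compare sets further apart in tags than the main rule does. A limit of 20 moved both sets and left 4194 weaker peaks. It gave a median score of 21, a median fold of 11.3 and a difference in score over tags of -0.05. A lower distance limit of 20000 bp left 615 members. Requiring at least 8-fold over input gave a median fold of 14.8, a ratio of 1 and a difference of -20.5 percentage points in the share at the lowest input, against -10.4. Leaving out peaks at the lowest input gave a median fold of 11.1 and a ratio of 1.40. With the fold of those peaks set against 3 input tags, a setting added after seeing the data, the median was 10.6 and the ratio 1.54. Keeping only peaks with at most 1 input tag left 270 members with a median input of 0.9 scaled tags, equal to that of weaker peaks, a median fold of 31.7, a ratio of 1.87 and a difference of -6.36 points; these changes follow from the restriction. The difference in median distance to the nearest peak was -12.6 kb. It ran from -16.4 kb at a tag limit of 30, against the unchanged weaker set, to -6.49 kb with distances up to 100000 bp. These spacing settings were applied after seeing the data. The excess of strong nearest neighbours, 7.23 points, ran from 4.60 to 9.43, the latter also at a tag limit of 30. No replicate could be left out, as there is 1 ChIP sample. No paired analysis was possible because each group has 1 sample. At this depth a site with a few tags stays unlisted, so a solitary peak may have neighbours below the threshold.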

Other observations

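On the X chromosome 4 peaks met the same tag and distance limits, beside 59 weaker ones. They had 25 tags at chrX:160451261-160451567, 24 at chrX:20394230-20394536, 23 at chrX:163793817-163794123 and 22 at chrX:93188628-93188934, each below the autosomal members' median of 26. The first had no input tag, and the others were 8.46-fold, 12.2-fold and 11.6-fold over input.

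The 31 autosomal peaks of the same tag range with no neighbour within 300 kb had a lower mean input than the members, 1.67 scaled input tags against 2.54. Of the 31, 2 had at least 4 input tags (6.45%, interval 0.791 to 21.4) against 30.2% of members (27.2 to 33.2). The intervals of the median input meet, at 0.9 to 1.9 against 1.9 to 2.8 in members. No input tag lay under 3 of the 31 (9.68%, 2.04 to 25.8), against 8.89% of members (7.15 to 10.9). The 31 peaks had a median of 25 tags, close to the 26 of the members. The strongest of them, chr9:3015359-3015665 with 43 tags, was the outermost listed peak of its chromosome, and was 45.5-fold over input (7.74 to 1838) but only 5.43-fold over its local region.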
